A study of Mus musculus with 7 samples.

Results

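A list of 10 genes of gap junctions, potassium channels and endolymph transport, of the 32285 genes in the files, was examined in the gentamicin-damaged mouse utricle with and without Fos overexpression. The list was chosen with earlier results of these data known, and all its genes were kept, whatever their values. They were matched to the counts by symbol: Gjb2, Gjb6, Gja1, Kcnj10, Slc1a3, Kcnq1, Kcne1, Slc12a2, Bsnd and Slc26a4. All 10 passed the filter on low counts that kept 17155 genes for testing. Both groups were explants of utricles from wild-type (labelled WT) mice at postnatal day 2 (C57BL/6J in the methods), and the explants were exposed to gentamicin at 2 mM over 24 h and taken at day 5 after injury. The Gent+Fos OE group (4 libraries) also received AAV-PHP.eB Fos, a viral vector in which the methods place mouse Fos under the CMV promoter, for 48 h. The Gent group (3 libraries) is labelled with gentamicin alone, while the names given to its deposited counts hold letters that can also mean shRNA. A figure legend of the study speaks of a control AAV, and the methods list a vector with EGFP as control. The sources used here do not settle which virus, if any, this group was given, and the fold changes have the meaning the labels give them. Each library was made from RNA of 12 pooled utricles, with otoconia removed and the whole organ cultured, so replicate spread here is that of pools.

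The utricle is a balance organ whose hair cells are bathed on top by endolymph, a fluid rich in potassium. Around the sensory patch, dark cells take up potassium from below through the sodium pump and the sodium-potassium-chloride cotransporter encoded by Slc12a2, and release it into the endolymph through the channel formed by Kcnq1 and its subunit Kcne1. Bsnd encodes barttin, an accessory subunit of basal chloride channels. Transitional cells next to the sensory patch carry pendrin, the anion exchanger encoded by Slc26a4. Supporting cells surround the hair cells, pass ions and small molecules through gap junctions built of the connexins Gjb2, Gjb6 and Gja1, buffer potassium through inward rectifiers such as Kcnj10, and clear glutamate through Slc1a3. These assignments are textbook background and are not exclusive, since mesenchyme also carries connexins, glia carry Kcnj10 and Slc1a3, and many cells carry Slc12a2. In bulk RNA, fewer cells of a type and less RNA per cell cannot be told apart.

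The overexpressed factor c-Fos acts as part of the AP-1 complex, which binds the letters TGACTCA, so the bases just before the start of the 3 connexin genes are shown with this motif in capitals. The sequences are the RefSeq promoters (GRCm38.p6, the coordinates of mm10), 120 bases ending at the base before the start, each read 5′ to 3′ on the strand of the gene: chr14:57104703-57104822 (minus strand) for Gjb2, chr14:57133612-57133731 (minus strand) for Gjb6 and chr10:56377180-56377299 (plus strand) for Gja1.
Gjb2: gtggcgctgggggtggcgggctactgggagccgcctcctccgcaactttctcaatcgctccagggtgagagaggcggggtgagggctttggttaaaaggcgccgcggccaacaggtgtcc
Gjb6: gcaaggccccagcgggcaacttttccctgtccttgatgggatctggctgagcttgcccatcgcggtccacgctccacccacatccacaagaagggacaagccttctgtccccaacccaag
Gja1: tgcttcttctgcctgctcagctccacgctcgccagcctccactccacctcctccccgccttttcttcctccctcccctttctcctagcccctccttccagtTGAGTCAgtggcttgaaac
TGACTCA was searched on both strands in the whole 300 bases of each promoter (250 before and 50 after the start), and its letters are not contained in the other motif searched, TGACGTCA. Of the 10 genes, 6 matched a promoter (Gjb2, Gjb6, Gja1, Kcnj10, Slc1a3 and Slc26a4), and Gja1 alone of these 6 held the letters, from 19 to 13 bases before the RefSeq start, read as TGAGTCA on the gene's strand. Among all 32851 promoters of the same length, 5.2% held them. The letters TGACGTCA, a related motif, were in 0 of the 6 and in 1.79% of all promoters. Kcnq1, Kcne1, Slc12a2 and Bsnd were not matched.

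Library totals ran from 27879889 to 34335214 counts. Fos itself was at 149 to 167 CPM (counts scaled to a common library total with edgeR's TMM factors) in the 4 Gent+Fos OE libraries and at 34.6 to 40.6 CPM in the 3 Gent libraries, so no library went against its label. The tissue held the markers of a utricle, with the supporting cell gene Sox2 at 79.2 to 110 CPM and the hair cell gene Myo7a at 84.3 to 108 CPM over the 7 libraries. Gent replicate 2 stood apart, because across the tested genes its deviation from the mean library followed gene length (Spearman's rho -0.496). The rho was 0.325, 0.291, 0.213 and 0.124 in Gent+Fos OE replicates 1 to 4, and 0.153 and -0.221 in Gent replicates 1 and 3. The length trend therefore also differed between the groups, beyond Gent replicate 2.

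Levels per gene length were compared first, as TPM (counts per base of exon, scaled to the same total in each library), over all 7 libraries. The gap junction genes Gjb2 and Gjb6 were the most abundant of the 10, at 702 ± 130 TPM and 370 ± 55.3 TPM (SD, n = 7), which placed them above 99.1% and 97.9% of the tested genes. Slc1a3 followed at 230 ± 39.2 TPM (SD, n = 7). These 3 genes kept their order in 7 of 7 libraries, and their ranges did not overlap. Slc26a4 (120 ± 14.1 TPM) and Slc12a2 (114 ± 36.3 TPM) came next and could not be ordered, since Slc26a4 was the higher of the pair in 4 of 7 libraries. Kcnq1 was at 44.2 ± 9.45 TPM and Kcnj10 at 28.2 ± 7.42 TPM, with Kcnq1 higher in 7 of 7 libraries although the ranges overlapped. Kcne1 (20.2 ± 2.38 TPM) and Gja1 (20.1 ± 3.58 TPM) did not differ beyond their spread. Bsnd was the lowest at 3.06 ± 1.49 TPM (SD, n = 7), so that the mean level of Gjb2 was 229 times that of Bsnd. Kcnq1, Kcne1 and Bsnd were thus in the lower part of the list, and 21.2% of the tested genes had less TPM than Bsnd.

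**Figure D1:**
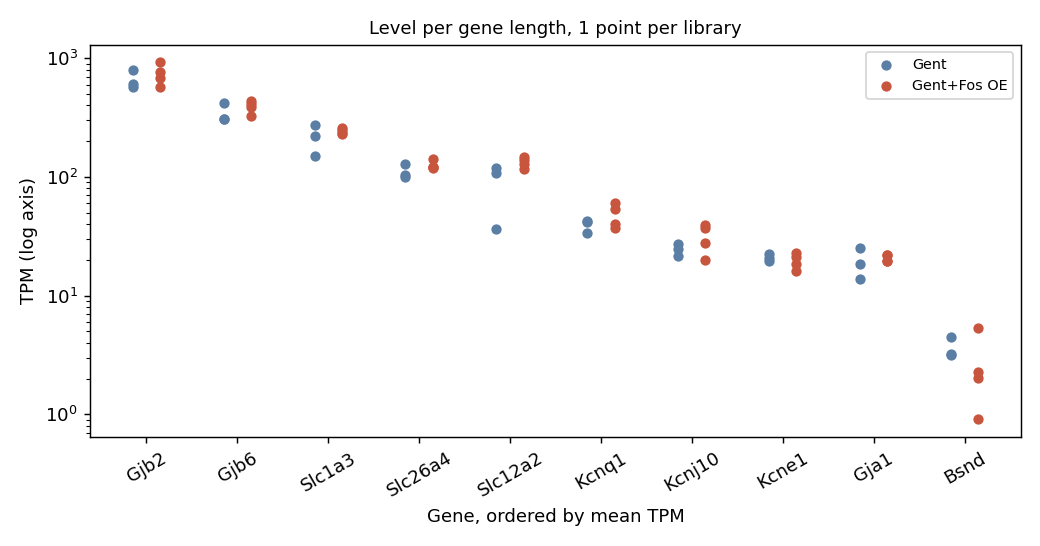
Level of each of the 10 genes per gene length in TPM (log axis), 1 point per library, with Gent in blue and Gent+Fos OE in red, ordered by the mean over the 7 libraries. Gjb2, Gjb6 and Slc1a3 lie above the rest without overlapping, Bsnd lies below them all, and the low blue point of Slc12a2 is Gent replicate 2 at 36.8 TPM.

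Whether Fos overexpression changed these genes was asked by comparing Gent+Fos OE with Gent in edgeR's quasi-likelihood test, fitted on all 17155 genes with Benjamini-Hochberg adjustment. To be called, a gene needed an adjusted p below 0.01 together with a log2 fold change above 0.25 or below -0.25. These limits were taken from the published methods. None of the 10 genes was called by edgeR, against 0.414% of all tested genes (71; 0.134% higher and 0.28% lower in Gent+Fos OE). DESeq2 also called 0 of the 10, against 2.86% of its genes (1.3% higher and 1.56% lower). With p left unadjusted, below 0.05, and the fold limit kept, the count was again 0 of 10, where 24.5% of all tested genes passed (11.1% higher and 13.4% lower), and without Gent replicate 2 it was 0 of 10 against 18.9% (9.48% higher and 9.38% lower). The values of the groups overlapped for all 10 genes, while for 23.4% of all tested genes they did not. The median log2 fold change of the 10 was -0.0045 and their median absolute value 0.06, beside -0.00075 and 0.28 over all tested genes. With 10 genes these shares are a description, and a miss of the threshold does not show that a gene was unaltered, so the interval of each difference is given below.

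**Figure D2:**
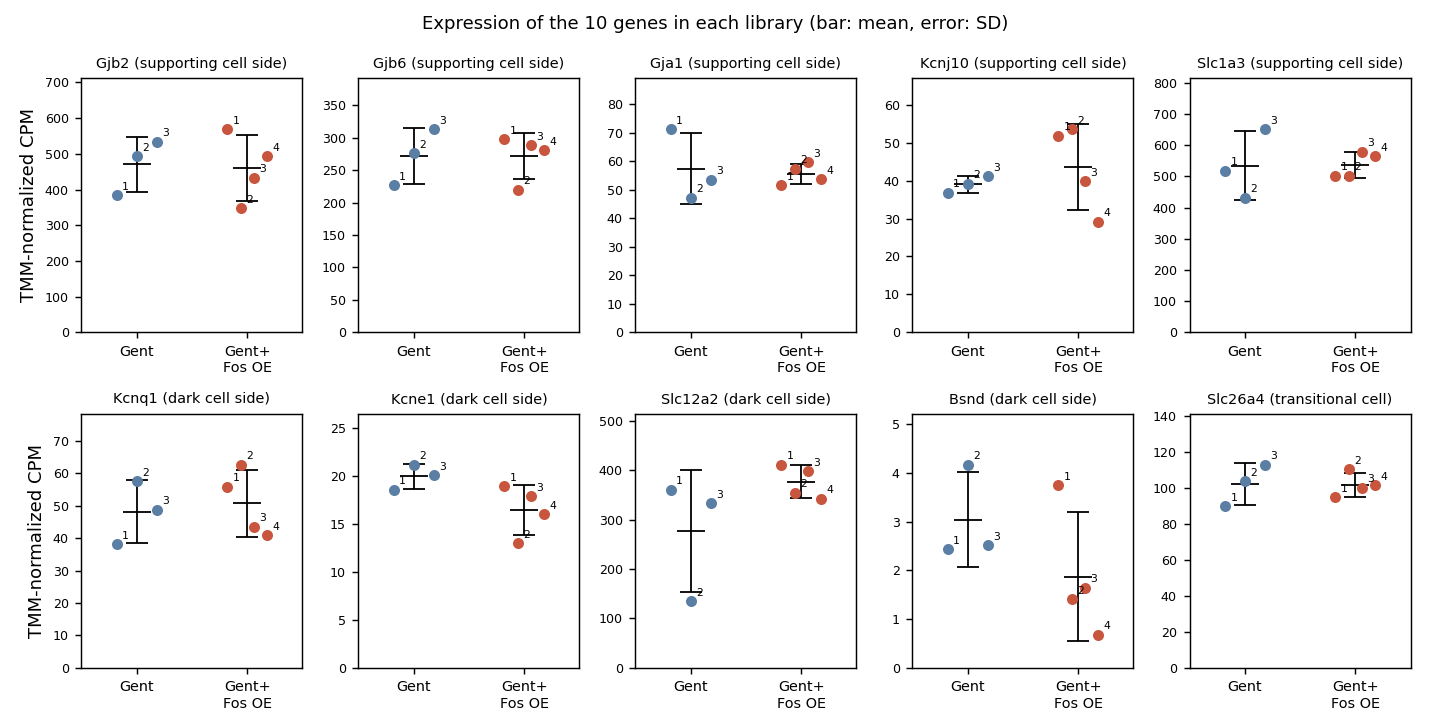
TMM-normalized CPM of each gene in each library, with the replicate number beside each point, the mean as a bar and the SD as the error. In all 10 panels the Gent and Gent+Fos OE points overlap. Slc12a2 is low in Gent replicate 2 (135 CPM) and Bsnd spreads from 0.677 to 3.75 CPM within Gent+Fos OE.

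Among the gap junction genes, Gjb2 (ENSMUSG00000046352; mm10 chromosome 14, 57098600 to 57104702) was at 569, 348, 433 and 492 CPM in Gent+Fos OE replicates 1 to 4 and at 383, 493 and 534 CPM in Gent replicates 1 to 3. The highest and the lowest of the 7 values were both in Gent+Fos OE. Its log2 fold change was -0.03 (95% interval -0.43 to 0.37), that is a fold of 0.979 with an interval from 0.742 to 1.29. Gjb6 (ENSMUSG00000040055; chromosome 14, 57123303 to 57133611) lies 18600 bases from Gjb2 on the same strand, and its protein joins that of Gjb2 in mixed channels. It was at 298, 220, 288 and 281 CPM in Gent+Fos OE and at 227, 276 and 313 CPM in Gent, again with full overlap. The fold of Gjb6 was 1.0 (interval 0.79 to 1.27). The ratio of Gjb2 to Gjb6 TPM stayed between 1.67 and 2.12 in the 7 libraries.

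The profiles of these neighbors over the libraries were close to each other. Likeness was measured as the root mean square distance between log2 CPM profiles, each centred on its mean over the 7 libraries. Gjb6 was at a distance of 0.11 from Gjb2, and of the 14182 genes compared (mean CPM 1 or more) only 2610035F20Rik was nearer (0.096), followed by Pip5k1b (0.108) and Hsd17b11 (0.108). The median distance from Gjb2 was 0.34. Gja1, the third connexin, was at 0.38 from Gjb2, farther than that median. For the dark cell gene Kcnq1 the nearest genes were Hmx2 (0.058), Hap1 (0.061) and Bmp7 (0.065), and the nearest of the 10 was Kcnj10 (0.18), with 2.96% of the compared genes nearer. Kcnj10, grouped here with the supporting cell genes, was at 0.39 from Gjb2, with 62.7% of the compared genes nearer. Kcne1, whose protein assembles with that of Kcnq1, was at 0.36 from it, near the median of 0.36. It was nearer to Gjb2, at 0.19, with 1.37% of the compared genes nearer. These distances rest on 7 libraries with shared depth and quality, and are a description.

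Gja1 (ENSMUSG00000050953; chromosome 10, 56377330 to 56402513), the connexin with the AP-1 letters shown above, was at 51.6, 57.4, 59.6 and 53.6 CPM in Gent+Fos OE and at 71.3, 47.3 and 53.5 CPM in Gent. All 4 Gent+Fos OE values lay within the range of the Gent libraries. The log2 fold change of Gja1 was -0.05 (interval -0.38 to 0.29). It was 0.14 without Gent replicate 1, which held the highest value, -0.17 without Gent replicate 2, and -0.31 (unadjusted p = 0.0179 and adjusted p = 0.136 in edgeR) after the trend of each library with gene length had been taken out. Gja1 has 10257 exonic bases, against a median of 4084 over the tested genes.

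Kcnj10 (ENSMUSG00000044708; chromosome 1, 172341210 to 172374085) was at 51.8, 53.5, 39.8 and 29.1 CPM in Gent+Fos OE and at 36.8, 39.1 and 41.1 CPM in Gent. The Gent+Fos OE libraries lay on both sides of the narrow Gent range, with a coefficient of variation of 26.2% against 5.58%. The log2 fold change was 0.16 (interval -0.27 to 0.59). It was 0.06 without Gent+Fos OE replicate 1, 0.042 without Gent+Fos OE replicate 2, 0.31 without Gent+Fos OE replicate 4 and 0.076 with the gene length correction. Slc1a3 (ENSMUSG00000005360; chromosome 15, 8634124 to 8710764) was at 502, 501, 579 and 565 CPM in Gent+Fos OE and at 519, 432 and 651 CPM in Gent. Here the wider spread was in Gent, which enclosed all Gent+Fos OE values, and the fold was 1.01 (interval 0.796 to 1.27). Without Gent replicate 2, the lowest library, the log2 fold change of Slc1a3 was -0.13. Melanocytes and glia can also carry Kcnj10 or Slc1a3. The summed level of 8 melanocyte markers ran from 49.1 to 53.6 CPM in Gent+Fos OE and from 99.9 to 136 CPM in Gent. Of the 8, 3 were called lower by edgeR, 7 by DESeq2 and 7 were lower at the unadjusted limit (0.28%, 1.56% and 13.4% of all tested genes). The sums of 10 Schwann cell and glia markers overlapped (535 to 733 CPM against 526 to 726 CPM). Of these 10, 0 were called by edgeR and 1 was called lower by DESeq2. At the unadjusted limit 1 was higher and 3 were lower. The part of either cell type in the Kcnj10 and Slc1a3 values was not tested.

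On the dark cell side, the potassium channel gene Kcnq1 (ENSMUSG00000009545; chromosome 7, 143106362 to 143427042) was at 55.9, 62.7, 43.6 and 40.9 CPM in Gent+Fos OE and at 38.1, 57.6 and 48.8 CPM in Gent. Its log2 fold change of 0.08 (interval -0.34 to 0.49) was smaller than the spread in either group. Without Gent replicate 2 it was 0.22, without Gent replicate 1 it was -0.067, and without Gent+Fos OE replicate 2 it was -0.044. Another gene overlaps 2.96% of the exonic bases of Kcnq1, and reads there were left out of the counts. Kcne1 (ENSMUSG00000039639; chromosome 16, 92345982 to 92359468) was at 18.9, 13.0, 17.9 and 15.97 CPM in Gent+Fos OE and at 18.6, 21.2 and 20.1 CPM in Gent. Gent+Fos OE replicate 1 lay above the lowest Gent library, and the other 3 lay below all Gent libraries. The log2 fold change of Kcne1 was -0.28 (standard error 0.16, interval -0.62 to 0.07, adjusted p = 0.287 in edgeR). It was negative in all 17 fits run, from -0.36 to -0.18, with adjusted p-values from 0.22 to 0.517. The ratio of Kcnq1 to Kcne1 TPM was 2.32, 3.8, 1.91 and 2.01 in Gent+Fos OE and 1.61, 2.14 and 1.91 in Gent, so that Gent+Fos OE replicate 2 alone set the upper limit.

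Bsnd (ENSMUSG00000025418; chromosome 4, 106483456 to 106492283) was at 3.75, 1.41, 1.65 and 0.677 CPM in Gent+Fos OE and at 2.43, 4.17 and 2.51 CPM in Gent. As with Kcne1, Gent+Fos OE replicate 1 stood among the Gent values and the other 3 libraries were below them. The counts behind these values were 115, 46, 52 and 19 in Gent+Fos OE, and the exact 95% Poisson intervals of the highest and lowest were 94.9 to 138 and 11.4 to 29.7, which cover counting error only and not the spread between pools. The log2 fold change of Bsnd was -0.70 (standard error 0.48, interval -1.75 to 0.36, adjusted p = 0.373 in edgeR). The value was -1.28 without Gent+Fos OE replicate 1 (unadjusted p = 0.011 and adjusted p = 0.205 in edgeR) and -0.41 without Gent replicate 2. On the fold scale the interval ran from 0.298 to 1.28, and the difference was not detectable at this depth and spread.

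Slc12a2 (ENSMUSG00000024597; chromosome 18, 57878678 to 57946821) had the largest positive log2 fold change of the 10, 0.44 (standard error 0.27, interval -0.16 to 1.05, adjusted p = 0.327 in edgeR). Its values were 411, 354, 398 and 342 CPM in Gent+Fos OE and 361, 135 and 333 CPM in Gent. Gent replicate 2 thus lay far below the other 6 libraries, which held at least 333 CPM, and without it the log2 fold change was 0.11. It was 0.68 without Gent replicate 1 (unadjusted p = 0.0349 and adjusted p = 0.122 in edgeR) and 0.60 without Gent replicate 3. With 10920 exonic bases Slc12a2 is the longest of the 10 genes. After the same length correction its value was 0.21 (adjusted p = 0.514 in edgeR).

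Of the 3 Gent libraries, replicate 2 was the lowest for Slc12a2, Gja1 and Slc1a3, the 3 longest genes (10920, 10257 and 8537 bases). It was the highest for Kcnq1, Kcne1 and Bsnd (4093, 3214 and 2756 bases) and in the middle for the other 4, namely Kcnj10 (5407 bases) and the short genes Slc26a4, Gjb6 and Gjb2 (3109, 2674 and 2406 bases), so its rank did not follow length gene by gene. Removing the length trend moved the log2 fold change down for those 3 long genes and up for Gjb2 (to 0.08), Gjb6 (to 0.09) and Slc26a4 (to 0.06).

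Slc26a4 (ENSMUSG00000020651; chromosome 12, 31519827 to 31559969) had the narrowest interval of the 10. It was at 94.9, 111, 100.2 and 102 CPM in Gent+Fos OE and at 90.1, 104 and 113 CPM in Gent, so that the Gent libraries enclosed the others. The fold was 0.994 (interval 0.821 to 1.2).

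**Figure D3:**
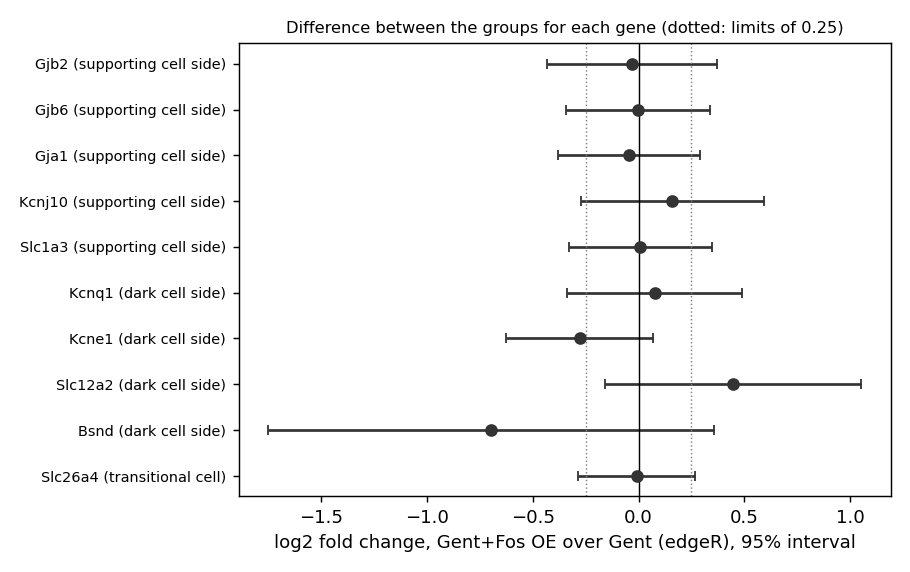
Log2 fold change of each gene, Gent+Fos OE over Gent, from edgeR, with its 95% interval; dotted lines mark the limits of 0.25. Every interval crosses 0, and those of Bsnd (-1.75 to 0.36) and Slc12a2 (-0.16 to 1.05) are the widest.

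Taken gene by gene, an exact permutation test (two-sided, on mean log2 CPM, 35 assignments of 4 and 3 libraries) gave p-values from 0.0857 for Slc12a2 to 1.0 for Gjb6, and 0.0286 is the smallest it can give.

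The supporting cell genes (Gjb2, Gjb6, Gja1, Kcnj10 and Slc1a3) were then set against the dark cell genes (Kcnq1, Kcne1, Slc12a2 and Bsnd), with Slc26a4 left out of both. The mean log2 CPM of the 5 supporting cell genes was 7.43 ± 0.09 (SD, n = 4) in Gent+Fos OE and 7.42 ± 0.13 (SD, n = 3) in Gent. That of the 4 dark cell genes was 4.73 ± 0.34 in Gent+Fos OE and 4.87 ± 0.05 in Gent. By library, the mean of the dark cell genes was 5.17, 4.68, 4.76 and 4.34 in Gent+Fos OE replicates 1 to 4 and 4.82, 4.85 and 4.92 in Gent. This mean hides opposite values in Gent replicate 2, which was the lowest Gent library for Slc12a2 and the highest for the other 3. Gene by gene, the coefficient of variation was larger in Gent+Fos OE for Kcne1 (15.9% against 6.56%) and Bsnd (70.4% against 32.3%), alike for Kcnq1 (20.3% against 20.2%) and smaller for Slc12a2 (8.87% against 44.5%). The supporting minus dark difference was 2.38, 2.68, 2.71 and 3.03 in Gent+Fos OE and 2.54, 2.48 and 2.64 in Gent. The group means of this difference lay 0.15 apart, which is within the SD of Gent+Fos OE (0.27), and the groups overlapped. Gent+Fos OE replicate 4 alone carried most of it, since the gap was 0.04 without that library. It was 0.26 without Gent+Fos OE replicate 1 and 0.38 with Slc12a2 taken out of the dark cell genes.

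**Figure D4:**
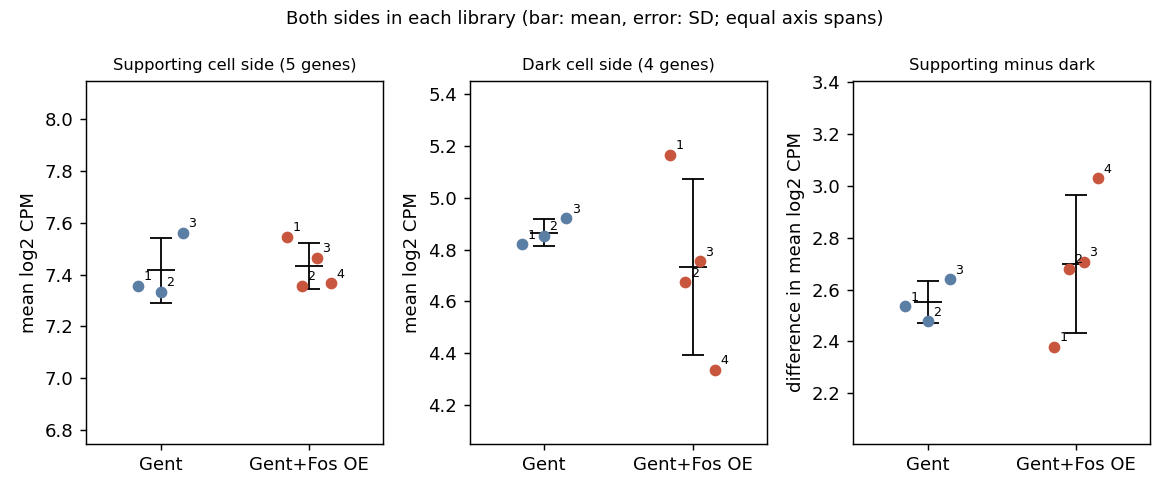
Mean log2 CPM of the 5 supporting cell genes, of the 4 dark cell genes, and their difference, 1 point per library with its replicate number, the mean as a bar and the SD as the error; the 3 axes span equal ranges. The dark cell genes run from 4.34 to 5.17 in Gent+Fos OE and from 4.82 to 4.92 in Gent, and the supporting cell genes overlap closely.

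The summed level of 12 markers of supporting cells in general was 2051 to 3124 CPM in Gent+Fos OE and 1503 to 1888 CPM in Gent. Of the 12, edgeR called 1 higher and 0 lower (0.134% and 0.28% of all tested genes). DESeq2 called 2 higher and 1 lower (1.3% and 1.56% of its genes). At an unadjusted p under 0.05 in edgeR, 6 were higher and 1 lower (11.1% and 13.4% of all tested genes). The median log2 fold change of the 12 was 0.44, beside -0.00051 for the 5 supporting cell genes described here. With the gene length correction these medians were 0.35 and 0.076, and without Gent replicate 2 they were 0.29 and 0.00017. The gene called by edgeR was Otog, which encodes otogelin, a protein of the acellular membranes over sensory patches. It was at 830 to 1354 CPM against 431 to 466 CPM, and was named after its values were seen. Without Otog, a setting added once the values were known, the sums of the other 11 markers overlapped, at 1221 to 1770 CPM in Gent+Fos OE and 1072 to 1422 CPM in Gent. Of these 11, 5 were still higher and 1 lower at the unadjusted limit, with a median log2 fold change of 0.42. Tectb, which encodes a tectorin of these membranes, was the 1 marker lower at the unadjusted limit, at 39.0 to 82.3 CPM against 98.1 to 208 CPM (log2 fold change -1.39, adjusted p = 0.0348 in edgeR). It passed the limits for a call in DESeq2 and without Gent replicate 2. The summed level of 8 macrophage markers was lower in Gent+Fos OE (812 to 1391 CPM against 1543 to 1961 CPM). Of the 8, 1 was called lower by edgeR, 5 by DESeq2 and 7 were lower at the unadjusted limit (0.28%, 1.56% and 13.4% of all tested genes). For 10 mesenchyme markers the sums overlapped (9191 to 14439 CPM against 11989 to 15218 CPM). Of these 10, 0 were called by edgeR or DESeq2, and 0 were higher and 2 lower at the unadjusted limit. The part of these cell types in the connexin values was not tested.

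Related genes from hand-written lists were read from the same fit, for which 0.414% of all tested genes were called and 24.5% passed at the unadjusted limit. Of 20 other connexin and pannexin genes, 12 were tested and 0 called, with 2 higher and 2 lower at an unadjusted p under 0.05. Without Gent replicate 2 the count was 4 higher and 1 lower of 13. Gja3, a lens connexin that lies near Gjb2 on chromosome 14, had the largest negative value, -1.27 (adjusted p = 0.148 in edgeR), at 0.367 to 0.602 CPM against 0.578 to 1.79 CPM, and -0.97 without Gent replicate 2. Gja4, a connexin of vessel walls, was at 1.36 to 1.69 CPM against 0.664 to 2.05 CPM (log2 fold change 0.43, and 1.12 without Gent replicate 2, its highest Gent library).

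The partners of the dark cell genes gave 11 tested genes, 0 called, and 3 higher and 0 lower at an unadjusted p under 0.05 (1 higher without Gent replicate 2). The beta subunits of the sodium pump went apart in value: Atp1b1 was at 362 to 503 CPM against 271 to 354 CPM (log2 fold change 0.39, adjusted p = 0.166 in edgeR), while Atp1b2 was at 141 to 207 CPM against 181 to 240 CPM (log2 fold change -0.27, adjusted p = 0.327 in edgeR). For Atp1b1, 18.7% of exonic bases are shared with another gene. The other 2 with low p-values were Lrp2, an endocytic receptor, with a log2 fold change of 0.60, and Wnk1, a kinase that controls the cotransporter, with 0.55; the adjusted p in edgeR was 0.146 and 0.174. Gent replicate 2 was the lowest library for both, at 131 CPM for Lrp2 and 182 CPM for Wnk1. Without it the log2 fold changes were 0.39 for Lrp2 and 0.30 for Wnk1, and with the length correction they were 0.17 and 0.069.

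**Figure D5:**
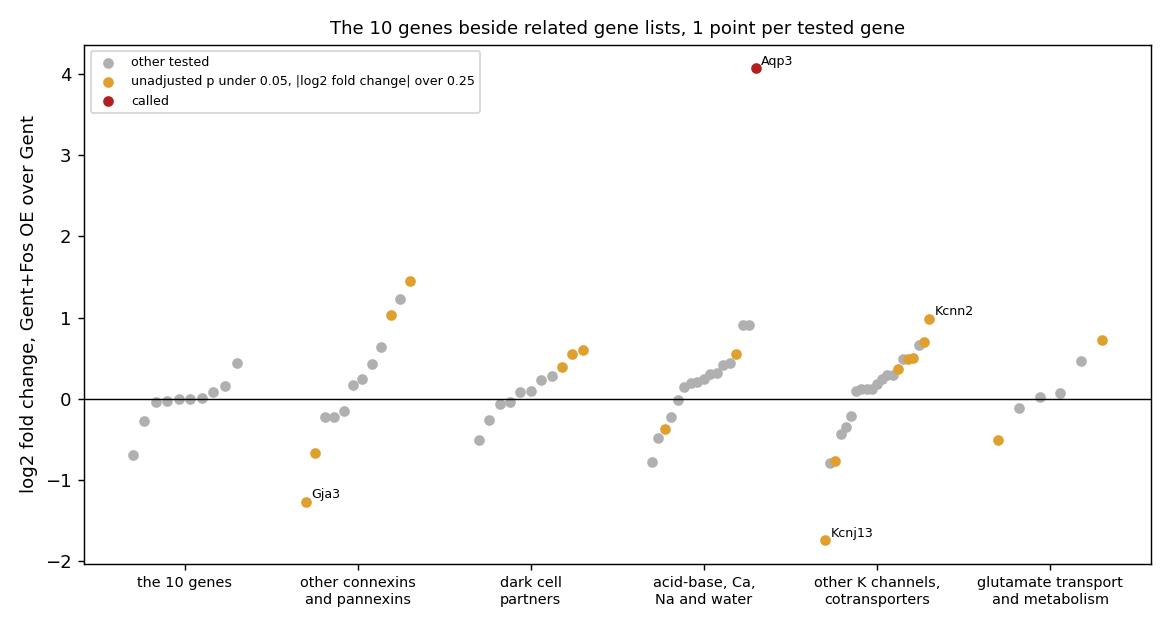
Log2 fold change, Gent+Fos OE over Gent, of the 10 genes and of the tested genes of 5 related lists, 1 point per gene, colored by whether the gene was called or passed at an unadjusted p under 0.05. The 10 genes lie between -0.70 and 0.44, and the one called gene is Aqp3 at 4.08.

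Of 17 tested genes of endolymph acid-base, calcium, sodium and water transport, 1 was called and a further 1 was higher and 1 lower at an unadjusted p under 0.05. The called gene was Aqp3, a channel for water and glycerol, at 2.93, 1.99, 2.69 and 2.64 CPM against 0.205, 0.128 and 0.116 CPM (log2 fold change 4.08, standard error 0.40, adjusted p = 0.00152 in edgeR). The Gent libraries held only 6, 4 and 4 counts of Aqp3, so it entered the test through the Gent+Fos OE libraries, and it was not among the genes tested with at least 10 counts in every library. Its adjusted p was 0.0135 without Gent+Fos OE replicate 3 and 0.0101 without Gent replicate 3. Foxi1, a transcription factor that drives pendrin in the ear, was at 2.54, 0.306, 0.443 and 0.356 CPM in Gent+Fos OE and 0.0685, 1.12 and 1.10 CPM in Gent.

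Of 21 other potassium channel and cotransporter genes, 0 were called by edgeR and 2 by DESeq2, with 5 higher and 2 lower at an unadjusted p under 0.05. Both DESeq2 calls were lower: Kcnj13, an inward rectifier, was at 0.665 to 0.879 CPM against 1.502 to 3.97 CPM (log2 fold change -1.75, adjusted p = 0.0481 in edgeR), and Kcna10, a channel of hair cells, was at 17.5 to 23.1 CPM against 26.3 to 45.8 CPM (log2 fold change -0.77, adjusted p = 0.0691 in edgeR). Both were without overlap, but 49.1% of the exonic bases of Kcnj13 are shared with another gene, so its value is uncertain. Kcnn2, a calcium-activated channel, was at 1.68 to 2.18 CPM against 0.897 to 1.10 CPM (log2 fold change 0.98, adjusted p = 0.111 in edgeR). Kcnj16, which pairs with Kcnj10, was at 21.4 to 28.6 CPM against 25.8 to 29.9 CPM (log2 fold change -0.22).

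Of 6 tested genes of glutamate transport and metabolism beside Slc1a3, 0 were called, with 1 higher and 1 lower at an unadjusted p under 0.05. Slc1a2, the other main glial glutamate transporter, was at 40.0, 30.1, 39.9 and 40.6 CPM in Gent+Fos OE and 28.8, 14.8 and 24.7 CPM in Gent (log2 fold change 0.73, adjusted p = 0.106 in edgeR, and 0.49 on the log2 scale without Gent replicate 2). Slc1a5, a transporter of neutral amino acids, went the other way at 13.2 to 15.9 CPM against 19.5 to 22.04 CPM (log2 fold change -0.50, adjusted p = 0.0834 in edgeR). Neither pair of ranges overlapped. Glul, which makes glutamine from glutamate, was at 243 to 306 CPM against 244 to 308 CPM.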

How the data were processed

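The authors deposited whole-number read counts per gene, 1 file per library, with no normalization. Per the file headers they came from featureCounts 2.0.6 on an mm10 annotation, with pairs counted as separate reads, strand not used, and multi-mapped or ambiguous reads left out; the labels also list Trim Galore 0.6.10 and HISAT2 2.2.1, and the methods name mm39 and other versions. The exon length column of the deposited files served for TPM. Symbols were those on which GENCODE vM39 and RefSeq GRCm38.p6 concurred by ID and place (24497 of 32285 genes).

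The tests ran in edgeR 4.0.16 under R 4.3.3 (filterByExpr, TMM, quasi-likelihood F-test, no covariate), with limma 3.58.1 (voom) and DESeq2 1.42.0 as alternatives. Standard errors and intervals were taken from the F statistic. Log2 CPM used a prior count of 2. All 7 libraries were used (the methods state 3 replicates per condition, the labels give 4 and 3); p-values measure the spread between pools. Same-numbered libraries did not deviate together (correlations 0.0643, -0.038 and 0.0317). The fits were tested on simulated data that had the same spread setting for every gene and no trend with gene length. That test therefore does not cover the length trend seen in Gent replicate 2. The genes examined and all lists were chosen with earlier results of these data known. Named genes were the 10, called genes of each list or else its 3 lowest p-values, partner genes of the 10, Fos, and the 3 genes nearest Gjb2 and nearest Kcnq1; any gene outside this rule is marked in the text or given as a tissue marker, and some genes the rule names are not reported here.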

Additional observations from a re-analysis of the deposited data

Results flagged for a closer look

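Within the 4 Gent+Fos OE libraries, 1 library stood far from the others for 4 of the named genes, by Dixon's test at 95%, which chance gives for about 5% of the 35 values checked. Foxi1 was at 2.54 CPM in replicate 1 against 0.306 to 0.443 CPM in the other 3. Slc1a2 was at 30.1 CPM in replicate 2 against 39.9 to 40.6 CPM. Gja3 was at 0.367 CPM in replicate 2 against 0.57 to 0.602 CPM, which rests on only 12 counts against 18, 19 and 16. Fos was at 167 CPM in replicate 3 against 149 to 151 CPM. None of the 10 genes was among them, and groups of 3 were not checked, so the low Slc12a2 value of Gent replicate 2 was not part of this test.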

How the results depend on the processing

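Over 16 alternative fits, 0 of the 10 genes was called in any. The number called over all genes was 71, and it was 600 with DESeq2, 204 with no filter, 130 with the gene length correction, 0 with a replicate block (edgeR; 3400 genes at the unadjusted limit), 48 with block and length correction, and 5 to 138 with single libraries left out. At an unadjusted p under 0.05, where 0 of the 10 passed, alternatives added after the data were seen gave 1 of the 10 with the gene length correction (Gja1, lower), 1 with the replicate block (Slc12a2, higher, log2 fold change 0.61) and 0 to 1 without single libraries (Bsnd without Gent+Fos OE replicate 1, Slc12a2 without Gent replicate 1). Same-numbered libraries share only a number, Gent+Fos OE replicate 4 has no counterpart and adds nothing under the block, and the block took Aqp3 and Fos past the limit (adjusted p = 0.0327 and 0.0296 in edgeR). Values close to 0 changed sign: Gjb2 was 0.079 with the length correction and 0.036 with block and length correction (-0.16 to 0.079 without single libraries). Gjb6 was 0.0057 with DESeq2, 0.0029 with limma-voom, 0.0065 with RLE, 0.00012 with at least 10 counts in every library, 0.091 with the length correction and 0.082 with block and length correction (-0.12 to 0.11). Slc1a3 was -0.021 with upper quartile scaling, -0.20 with the length correction, -0.00065 with the replicate block and -0.23 with both (-0.13 to 0.18). Slc26a4 was 0.064 with the length correction and 0.073 with block and length correction (-0.094 to 0.069). Glul was -0.012 with upper quartile scaling, -0.032 with the replicate block and -0.0049 with block and length correction (-0.056 to 0.12). Without single libraries Gja1 ran from -0.17 to 0.14, Kcnq1 from -0.067 to 0.22 and Foxi1 from -1.06 to 0.61. The cause was not tested. Of the 160 values of the 10 genes under alternatives, 131 kept their sign and their side of the limits, as did 335 of those of the other named genes, while Kcnj13 and Kcna10 were called in DESeq2 alone. The supporting minus dark gap kept its sign in each of its alternatives.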
